A study of Mus musculus with 12 samples.

Results

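The NOD receptors, TNF and the NF-kB factors they act through were followed as a set of 10 genes in dorsal root ganglia (DRG): Nod1, Nod2, Ripk2, Tnf, Tnfrsf1a, Tnfaip3, Nfkbia, Nfkb1, Relb and Icam1. The set was taken by gene symbol from a table of 49315 mouse genes, and all 10 were found and were high enough to be tested. Bulk RNA sequencing gave 1 library per mouse from 12 mice aged 10 months, with 8 DRG pooled from each. The 6 Nf2 mice carried Postn-Cre(+) and Nf2 flox/flox, and the 6 DKO (double knockout) mice carried Fak1 flox/flox in addition, with 3 males and 3 females by label in each genotype. Both genotypes therefore carried the Cre driven by the Periostin promoter and the loss of the tumour suppressor Nf2, and differed by the floxed alleles of Fak (Ptk2), the gene of focal adhesion kinase. Mice without the Nf2 deletion were not analysed here. By the study's account the Cre acts in Schwann cells and their precursors, while each library mixed all cells of the ganglia. The question was how the levels of these genes in Nf2-deficient ganglia compare with and without Fak.

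NOD1 and NOD2 are receptors inside the cell that sense fragments of bacterial peptidoglycan and recruit the kinase RIPK2. TNF, a cytokine made largely by macrophages, binds TNFR1, the product of Tnfrsf1a, and both routes converge on the IKK complex. IKK releases NF-kB dimers from their IkB inhibitors, and the dimers then activate inflammatory genes together with their own inhibitors. In injured nerve and ganglia this pathway is known for its part in the recruitment of immune cells.

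The libraries held 21129191 to 41250329 counted reads. The tissue label was matched by high levels of sensory neuron and Schwann cell markers, whose lists summed to 8989 to 11922 CPM (reads of a gene scaled so that every library has the same total) and 8886 to 12776 CPM over the 12 mice. Whole-gene counts of Ptk2, the gene deleted in DKO mice only, did not separate the genotypes. Ptk2 had 70.0 ± 3.597 CPM in Nf2 against 64.0 ± 10.4 CPM in DKO (n = 6, mean ± SD, edgeR adjusted p = 0.529). The gene Nf2, deleted in both genotypes and so no check of the labels, had 128 ± 12.4 and 118 ± 11.2 CPM (edgeR adjusted p = 0.435). Mouse 702, an Nf2 mouse labelled male, had 496 CPM of Xist and 0.525 CPM of Ddx3y, levels like those of libraries labelled female (428 to 637 CPM of Xist), so values by sex are given with and without it. DKO mouse 887 had the highest mitochondrial share of the counts, 5.603%, against 1.99% to 4.45% in the other mice. Skeletal muscle markers summed to 58.7 to 1133 CPM in Nf2 and 69.1 to 407 CPM in DKO mice.

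Start sites of 4 genes of the set are shown first, because the products of Nfkbia and Tnfaip3 restrain the factor that drives them, and Tnf and Icam1 are textbook NF-kB targets. Each line gives the 150 bases before the RefSeq start on the gene's own strand (build GRCm38.p6). Capitals mark matches to the kB consensus, a 10-base motif bound by NF-kB, on either strand. The windows are chr12:55492648-55492797 (minus strand), chr10:19015411-19015560 (minus strand), chr17:35202008-35202157 (minus strand) and chr9:21015790-21015939 (plus strand), in the order printed.
Nfkbia: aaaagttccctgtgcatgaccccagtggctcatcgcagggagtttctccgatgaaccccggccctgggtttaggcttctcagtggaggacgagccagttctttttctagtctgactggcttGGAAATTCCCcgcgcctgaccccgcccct
Tnfaip3: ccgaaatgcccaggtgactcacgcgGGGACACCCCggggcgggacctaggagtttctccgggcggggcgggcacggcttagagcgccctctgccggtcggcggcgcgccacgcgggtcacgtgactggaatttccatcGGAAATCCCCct
Tnf: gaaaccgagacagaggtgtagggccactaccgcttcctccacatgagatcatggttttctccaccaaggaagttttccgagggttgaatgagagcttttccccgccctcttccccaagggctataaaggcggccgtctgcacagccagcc
Icam1: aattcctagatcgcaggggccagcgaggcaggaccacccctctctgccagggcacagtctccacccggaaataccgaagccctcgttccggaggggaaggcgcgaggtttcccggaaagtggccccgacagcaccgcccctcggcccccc
Nfkbia held 1 match, which began 29 bases before the start, and Tnfaip3 held matches that began 125 and 12 bases before it. The Tnfaip3 window lies inside the longer GENCODE gene, and 13 of its bases are exonic there. RefSeq windows of 300 bases (250 before and 50 after a start) were at hand for 7 of the 10 genes, 9 windows in all, and 2 of the 9 held a match. Of all 32851 mouse windows 1480 did, or 4.51%. The 2 windows with a match were those of Nfkbia and of the Tnfaip3 start shown, while the window of a second RefSeq start of Tnfaip3 had none. Tnf and Icam1 held no match in the 150 bases shown or in their 300-base windows. A match is a run of letters and not a measured binding site. Likewise, a window without capitals does not show that NF-kB has no site there or nearby.

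The 10 genes differed widely in level. Per kb of annotated exon, Nfkbia, which encodes the inhibitor IkB-alpha, was the highest at 32.1 ± 10.7 CPM per kb (mean ± SD over 12 mice). Tnfrsf1a followed at 14.98 ± 1.35, then the receptor gene Nod1 at 9.15 ± 1.27 CPM per kb. Nfkb1, the gene of the NF-kB subunit p105/p50, had 6.68 ± 0.999 CPM per kb and Ripk2 had 5.19 ± 0.483. Relb, a subunit of the non-canonical pathway, had 3.87 ± 0.788 CPM per kb. Tnfaip3, which encodes the ubiquitin-editing inhibitor A20, had 1.73 ± 0.389 CPM per kb, and Icam1, the gene of a leukocyte adhesion molecule, had 1.34 ± 0.325. The lowest levels were those of Nod2 at 0.541 ± 0.0729 and Tnf at 0.207 ± 0.0784 CPM per kb. The ranges over the 12 mice overlapped between neighbours in this order from Nod1 to Icam1, although Nod1 was above Nfkb1 in all 12 mice and Nfkb1 above Ripk2 in 11. The NOD receptors thus lay far apart, with Nod1 above Nod2 in every mouse. The exon lengths are unions over all annotated transcripts, so a gene with long rare transcripts is understated on this scale.

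**Figure D1:**
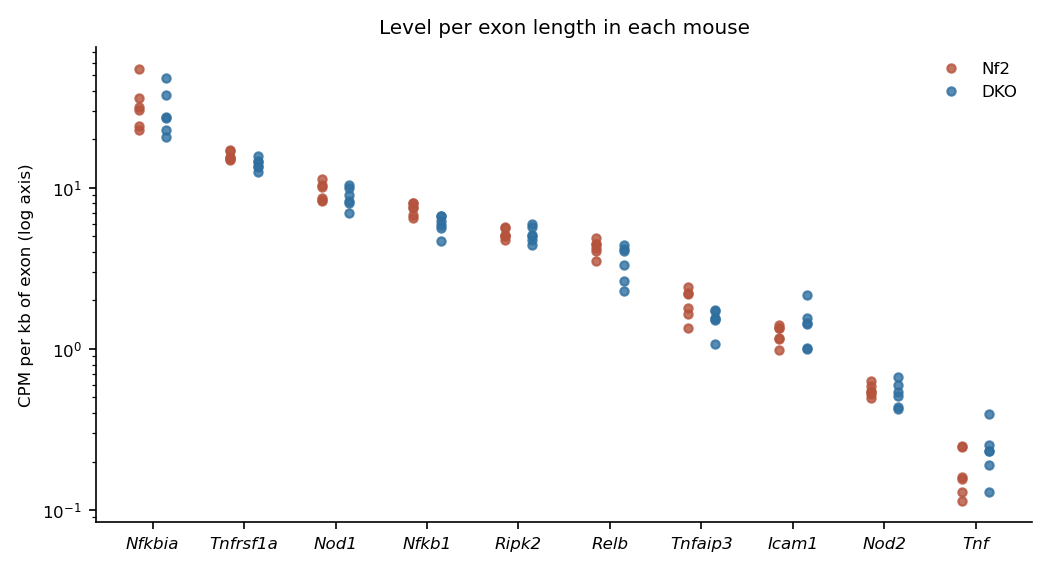
Levels of the 10 genes as CPM per kb of exon (log axis), 1 point per mouse, in Nf2 (red) and DKO (blue) mice, ordered by the mean over 12 mice. Nfkbia has the highest mean level at 32.1 CPM per kb and Tnf the lowest at 0.207 CPM per kb.

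None of the 10 genes passed an edgeR adjusted p of 0.05 between the genotypes, where 172 of 18295 genes tested (0.940%) did. Nfkb1, Tnfrsf1a and Tnfaip3 were lower in DKO mice at an unadjusted p under 0.05, which is 3 of 10 genes against 14.9% of all genes tested. The fitted log2 fold change of DKO against Nf2 was negative for 8 genes and positive for Tnf and Icam1, where 49.0% of all genes tested were negative. Its median over the 10 genes was -0.14, beside 0.0047 over all genes tested. No gene of the set had values that did not overlap between the genotypes, which 1.95% of all genes tested had. DESeq2's Wald test called 1 of the 10 genes, Nfkb1, where it called 3.97% of the 20708 genes given an adjusted p. By the same test 4 of the 10 had an unadjusted p under 0.05, against 9.40% of 35600 genes. Those 35600 include genes too low for the edgeR filter, so the 9.40% is not a like background for the 10. In bulk tissue, fewer cells of a type and less RNA per cell cannot be told apart.

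**Figure D2:**
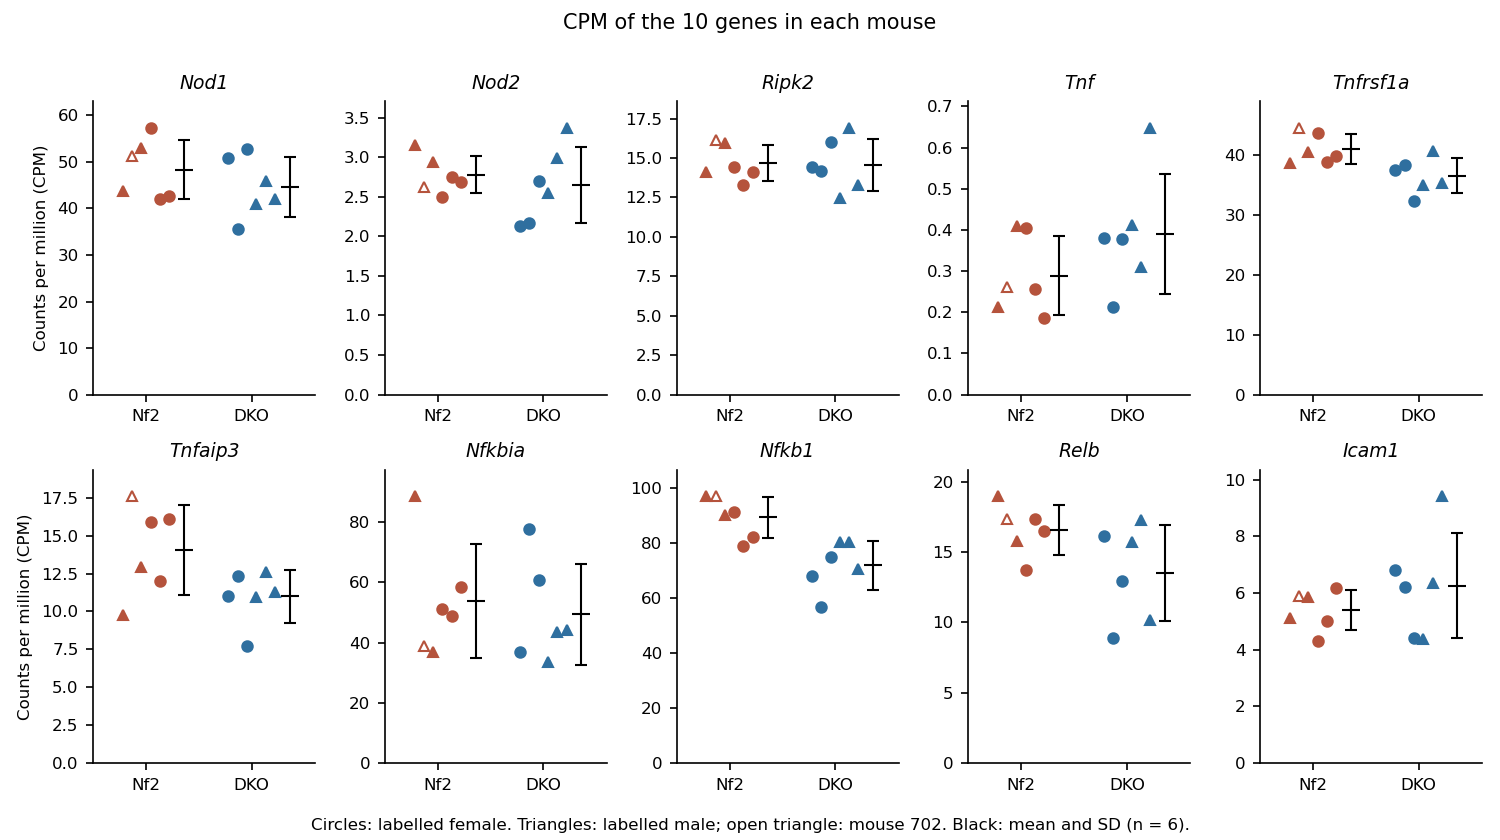
CPM of each gene in the 6 Nf2 (red) and 6 DKO (blue) mice, with circles for mice labelled female, triangles for mice labelled male, an open triangle for mouse 702, and the mean ± SD in black. The genotypes overlap in every panel, least for Nfkb1, where 5 of the 6 Nf2 mice lie above the highest DKO mouse.

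The receptors of the NOD route and their kinase had overlapping levels in the genotypes. Nod1 (ENSMUSG00000038058, GRCm38 chromosome 6, 54923949 to 54972612, minus strand) ranged from 41.9 to 57.3 CPM in Nf2 mice, with a median of 47.5, and from 35.5 to 52.8 CPM in DKO mice, with a median of 44.0. The highest value was in Nf2 mouse 918 and the lowest in DKO mouse 886, and the rest overlapped. The log2 fold change of Nod1 was -0.13 ± 0.11 (SE, 95% confidence interval -0.37 to 0.11, edgeR adjusted p = 0.637). It ranged from -0.20 without mouse 887 to -0.075 without mouse 886 when 1 mouse was left out.

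Nod2 (ENSMUSG00000055994, chromosome 8, 88647315 to 88688474, plus strand) was counted by only 51 to 105 reads per mouse. It ranged from 2.502 to 3.15 CPM in Nf2 mice (median 2.72) and from 2.12 to 3.37 CPM in DKO mice (median 2.62). The DKO range enclosed the Nf2 range, with DKO mouse 917 the highest. For Nod2 the log2 fold change was -0.088 ± 0.14 (SE, 95% interval -0.39 to 0.21, edgeR adjusted p = 0.821). Leaving out 1 mouse moved it between -0.16 (without mouse 917) and -0.031 (without mouse 885).

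Ripk2 (ENSMUSG00000041135, chromosome 4, 16122733 to 16163647, minus strand) had the fold change closest to 0 of the set. It ranged from 13.3 to 16.2 CPM in Nf2 mice (median 14.3) and from 12.4 to 16.9 CPM in DKO mice (median 14.3). Its log2 fold change was -0.033 ± 0.091 (SE, 95% interval -0.23 to 0.16, edgeR adjusted p = 0.907).

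Tnf (ENSMUSG00000024401, chromosome 17, 35199381 to 35202007, minus strand), the ligand, was counted by few reads, with 5 to 12 reads per Nf2 mouse and 5 to 17 reads per DKO mouse. It ranged from 0.187 to 0.410 CPM in Nf2 mice (median 0.260) and from 0.213 to 0.648 CPM in DKO mice (median 0.379). DKO mouse 917 was the highest, DKO mouse 914 lay just above the highest Nf2 mouse at 0.412 CPM, and the other 4 DKO mice lay within the Nf2 range. For Tnf the log2 fold change was 0.39 ± 0.30 (SE, 95% interval -0.26 to 1.04, edgeR adjusted p = 0.599). Without mouse 917 it was 0.21.

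Tnfrsf1a (ENSMUSG00000030341, chromosome 6, 125349362 to 125362484, plus strand), the receptor through which TNF activates NF-kB in most cells, ranged from 38.8 to 44.6 CPM in Nf2 mice (median 40.2) and from 32.4 to 40.8 CPM in DKO mice (median 36.5). All 6 DKO mice lay below the Nf2 mean, and 5 lay below the lowest Nf2 mouse, while DKO mouse 915 overlapped. Its log2 fold change was -0.19 ± 0.065 (SE, 95% interval -0.33 to -0.046), at an unadjusted p of 0.0131 and an adjusted p of 0.189 by edgeR. The highest Nf2 mouse was 702 and the lowest DKO mouse 887, without which the log2 fold change was -0.13 and the edgeR adjusted p 0.294. Leaving out these extremes was bound to shrink the difference.

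The inhibitors that NF-kB induces came next. Tnfaip3 (ENSMUSG00000019850, chromosome 10, 19000910 to 19015657, minus strand), whose start region above holds 2 kB matches, ranged from 9.80 to 17.6 CPM in Nf2 mice (median 14.4) and from 7.71 to 12.6 CPM in DKO mice (median 11.2). All 6 DKO mice lay below the Nf2 mean and 4 Nf2 mice lay above the highest DKO mouse, although Nf2 mouse 649 was lower than 5 of the DKO mice. For Tnfaip3 the log2 fold change was -0.37 ± 0.15 (SE, 95% interval -0.69 to -0.057), at an unadjusted p of 0.0243 and an adjusted p of 0.245 by edgeR. Mice 702 and 887 held its extremes too, so leaving them out was again bound to shrink the difference. Without both, the log2 fold change of Tnfaip3 was -0.22 with an edgeR adjusted p of 0.379, and in males without mouse 702 it was -0.015.

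Nfkbia (ENSMUSG00000021025, chromosome 12, 55489410 to 55492647, minus strand) varied the most between mice of the well-counted genes, with a coefficient of variation of 34.9% in Nf2 and 34.0% in DKO mice. It ranged from 37.0 to 88.6 CPM in Nf2 mice (median 49.97) and from 33.5 to 77.8 CPM in DKO mice (median 43.8). One mouse of each genotype stood high, Nf2 mouse 649 and DKO mouse 886, and the ranges overlapped almost wholly. Between genotypes its log2 fold change was -0.14 ± 0.24 (SE, 95% interval -0.66 to 0.38, edgeR adjusted p = 0.833). It was 0.063 without mouse 649.

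Nfkb1 (ENSMUSG00000028163, chromosome 3, 135584655 to 135691547, minus strand) showed the smallest p of the set. By mouse, it had 96.9, 96.8, 90.1, 91.2, 78.8 and 82.3 CPM in Nf2 mice 649, 702, 884, 918, 1048 and 1049, and 68.0, 56.7, 75.0, 80.1, 80.1 and 70.6 CPM in DKO mice 885, 886, 887, 914, 915 and 917. Only Nf2 mouse 1048 lay within the DKO range, just below DKO mice 914 and 915. The level of Nfkb1 was 89.3 ± 7.47 CPM in Nf2 and 71.8 ± 8.86 CPM in DKO mice, a fitted difference of -20.8% with a 95% interval from -30.7% to -9.52%. On the log2 scale the fold change was -0.34 ± 0.089 (SE), with an unadjusted p of 0.00218 that ranked 409 of all genes tested and an adjusted p of 0.0975 by edgeR. The Nfkb1 difference missed the threshold by edgeR and by limma voom with sample quality weights (adjusted p 0.0517). It passed by DESeq2 (adjusted p 0.0243), which called 823 genes in all. With 1 mouse left out in turn, the log2 fold change stayed between -0.38 and -0.28 with edgeR adjusted p of 0.0827 to 0.188.

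Relb (ENSMUSG00000002983, chromosome 7, 19606217 to 19629438, minus strand) ranged from 13.7 to 19.0 CPM in Nf2 mice (median 16.9) and from 8.86 to 17.3 CPM in DKO mice (median 14.3). DKO mice 886 and 917 were the lowest, at 8.86 and 10.2 CPM, and 3 DKO mice lay within the Nf2 range. For Relb the log2 fold change was -0.31 ± 0.15 (SE, 95% interval -0.64 to 0.013, edgeR adjusted p = 0.358). It was -0.22 without mouse 886.

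Icam1 (ENSMUSG00000037405, chromosome 9, 21015985 to 21028817, plus strand), a target of NF-kB on endothelium, ranged from 4.29 to 6.17 CPM in Nf2 mice (median 5.49) and from 4.36 to 9.41 CPM in DKO mice (median 6.29). Among DKO mice, 4 lay above the highest Nf2 mouse and 2 near the lowest, and mouse 917 had 9.41 CPM. Its log2 fold change was 0.19 ± 0.18 (SE, 95% interval -0.18 to 0.57, edgeR adjusted p = 0.667), and it was 0.044 without mouse 917. An antisense gene, Gm47079, shares 511 exon bases with Icam1. It had 0 to 12 reads per mouse, and since the strand setting of the counting is not given in the sources used here, reads of the pair cannot be told apart.

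**Figure D3:**
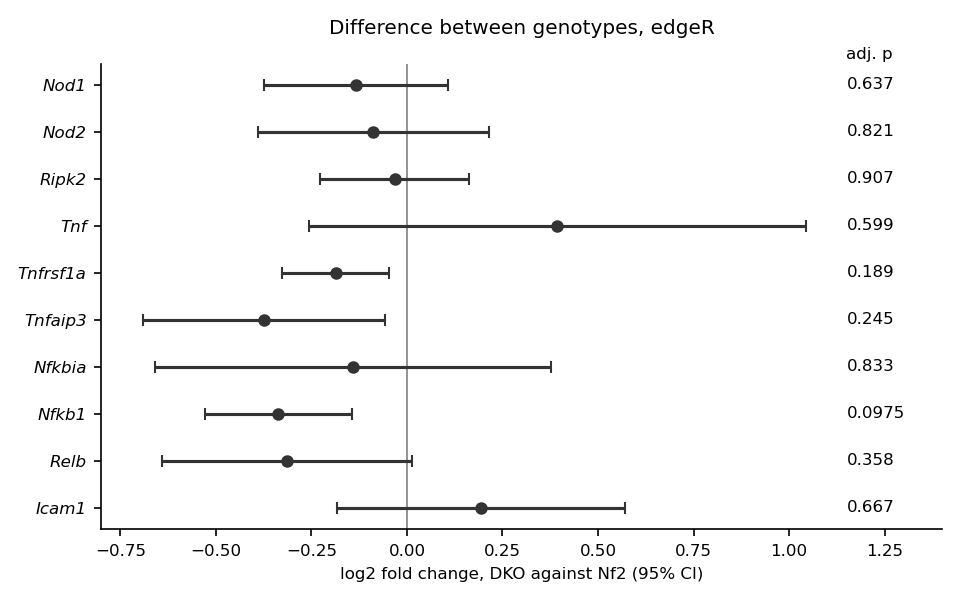
Log2 fold change of DKO against Nf2 from edgeR for the 10 genes, with 95% confidence intervals as bars and the edgeR adjusted p at the right (n = 6 mice per genotype). The intervals of Tnfrsf1a, Tnfaip3 and Nfkb1 lie below 0, and no adjusted p reaches 0.05.

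The lower level of Nfkb1 was seen in mice of either labelled sex. Among females, DKO mice had 56.7 to 75.0 CPM against 78.8 to 91.2 CPM in Nf2 mice, and among males 70.6 to 80.1 against 90.1 to 96.9 CPM, without overlap in either (3 mice per sex and genotype). Of all genes tested, 13.4% did not overlap in females and 19.1% did not in males. Counting mouse 702 with the females left both without overlap. By sex, the log2 fold change of Nfkb1 was -0.34 in females (edgeR adjusted p 0.547), -0.34 in males (0.357) and -0.33 in males without mouse 702 (0.553). Tnfrsf1a did not overlap in females, at 32.4 to 38.3 CPM in DKO against 38.9 to 43.8 CPM in Nf2 mice, and overlapped in males. An interaction of genotype and sex was passed by none of the 10 genes (edgeR adjusted p 0.920 to 0.999), where 2 of all genes tested (0.0109%) passed, and by none of the 10 without mouse 702. None of the 10 passed the edgeR test between males and females, against 3 of all genes (0.0164%), and none did without mouse 702, against 10 of all genes (0.0540%). The smallest unadjusted edgeR p was that of Nfkb1, 0.0284, with a male against female log2 difference of 0.19. Without mouse 702 its difference was 0.18, at an unadjusted edgeR p of 0.0626.

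The rest of the pathway was examined through 6 lists of 111 distinct genes, of which 100 were tested, the 10 above included. Ltbr, which encodes the lymphotoxin beta receptor that feeds the RELB arm of NF-kB, was the only one to pass the threshold by edgeR, or 1 of 100 against 0.940% of all genes. It fell from 23.1 ± 0.973 to 18.7 ± 1.51 CPM. It had 21.9 to 24.4 CPM in Nf2 and 16.6 to 20.4 CPM in DKO mice without overlap, as 1.95% of genes tested did. Its log2 fold change was -0.33 ± 0.066 (SE, edgeR adjusted p = 0.0364). That call was close to the threshold: it was kept in 2 of the 12 fits that left out 1 mouse, those without mouse 887 or 915, and the adjusted p ranged from 0.0388 to 0.0969.

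Among the tested genes of these lists, more were lower in DKO mice than higher. At an unadjusted p under 0.05, 23 of the 100 genes were lower and 2 higher, beside 7.96% lower and 6.91% higher of all genes tested. The fold change was negative for 75 of the 100 genes, against 49.0% of all genes tested, with a median of -0.11 on the log2 scale. The 2 higher genes were Tab3 and Ptgs2, named after their values were seen, at log2 fold changes of 0.20 and 1.01. Nfkb1, Tnfrsf1a and Tnfaip3, already described above, are among the 23 lower genes. The lists were chosen with earlier results of these data known. The paper had also reported negative enrichment of NOD2 and TNF signatures in DKO ganglia. These counts therefore describe the listed genes and are not an independent test of the pathway.

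**Figure D4:**
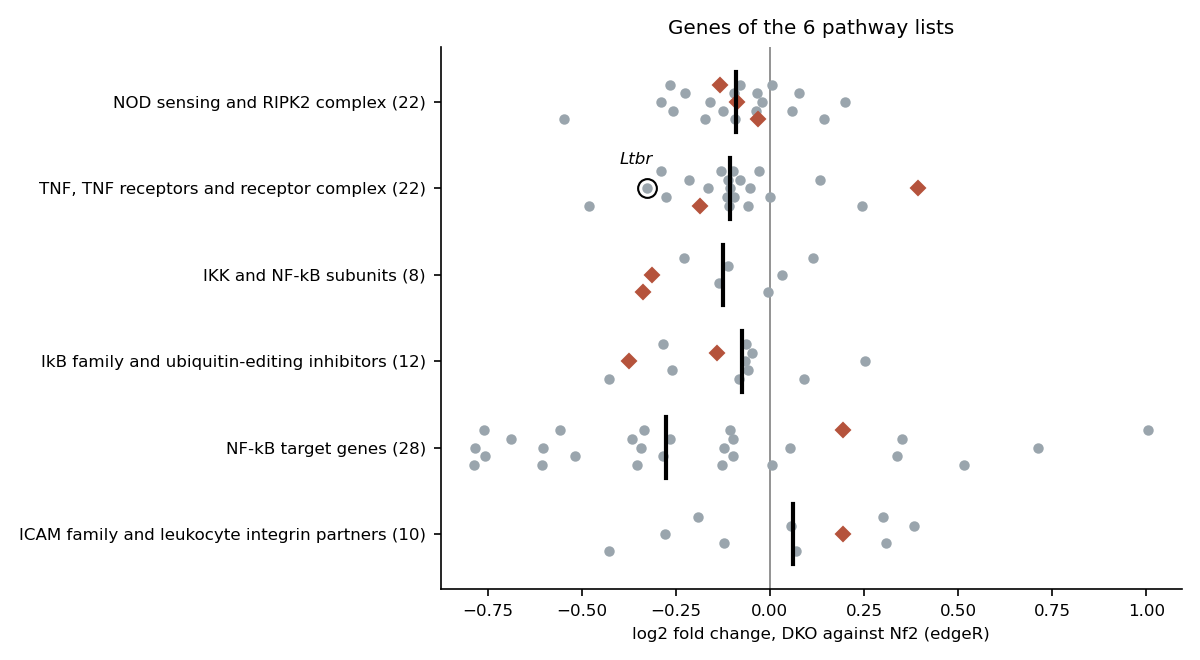
Log2 fold change of DKO against Nf2 from edgeR for each tested gene of the 6 lists (number tested in brackets), with the 10 genes of the set as red diamonds, other genes as grey points and list medians as black bars. The medians run from -0.28 in NF-kB target genes to 0.062 in the ICAM list, and the circled point is Ltbr, the only gene with an edgeR adjusted p under 0.05.

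Of the 22 genes tested for NOD sensing and the RIPK2 complex, 4 were lower and 1 higher at an unadjusted p under 0.05. The median log2 fold change was -0.090. For this list and those below, the shares of all genes tested to set beside such counts are 7.96% lower and 6.91% higher. Birc2 and Birc3, ubiquitin ligases of the cIAP family that act in both the NOD and the TNF receptor complexes, had log2 fold changes of -0.26 and -0.29 (edgeR adjusted p 0.110 and 0.196). Tab2, an adaptor of the kinase TAK1, had -0.22 (0.143). Slc15a3, a transporter that carries NOD ligands out of endolysosomes, had -0.55 (0.253).

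Of the 22 tested genes of TNF, its receptors and the receptor complex, 3 were lower and none higher at an unadjusted p under 0.05, with a median of -0.11. Beside Ltbr and Tnfrsf1a, the third was Casp8, the protease of the death-inducing branch, at -0.48 on the log2 scale (adjusted p 0.09997 by edgeR).

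Among the 8 genes of IKK and NF-kB subunits, Nfkb1 and Rela were lower at an unadjusted p under 0.05 and none was higher, with a list median of -0.12. Rela, which encodes p65, the usual partner of p50, had 61.8 ± 3.32 CPM in Nf2 and 53.4 ± 3.37 CPM in DKO mice. Its values of 59.2 to 68.3 and 49.1 to 58.0 CPM did not overlap, as was so for 1.95% of all genes tested. Its log2 fold change was -0.23 ± 0.059 (SE, edgeR adjusted p = 0.0870).

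Of the 12 tested IkB family members and ubiquitin-editing inhibitors, 3 were lower and none higher at an unadjusted p under 0.05, with a median of -0.075. They were Tnfaip3, Nfkbib (IkB-beta), at -0.28 on the log2 scale with an adjusted p of 0.145 by edgeR, and Bcl3, a nuclear IkB protein, with -0.43 and 0.282.

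The 28 tested NF-kB target genes, of 35 listed, had the lowest median, -0.28, with 10 lower and 1 higher at an unadjusted p under 0.05. Tlr2, a receptor of bacterial lipoproteins, had -0.60 as its log2 fold change (adjusted p 0.112 by edgeR), and Plau, a secreted protease that activates plasmin, had -0.34 (0.141). The monocyte chemoattractant Ccl2 had 5.71 to 9.90 CPM in Nf2 and 1.58 to 5.58 CPM in DKO mice. Its values did not overlap, as was so for 1.95% of all genes tested, and its log2 fold change was -0.76 (0.146). Junb, an AP-1 subunit, had -0.33 (0.174). Icam1 thus differed in sign from the list median. In the list of the ICAM family and its leukocyte integrin partners, 10 genes were tested, the median was 0.062, and 1 was lower at an unadjusted p under 0.05: Itgam, the integrin subunit CD11b of myeloid cells, with -0.43 (0.214).

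Markers of cells in the ganglia, in 13 lists, were set beside these genes. The median log2 fold change was 0.0074 for Schwann cells, 0.0017 for satellite glia and 0.0022 for sensory neurons. It was 0.23 for fibroblasts and perineurium, 0.14 for smooth muscle and pericytes and -0.21 for adipocytes. At an unadjusted p under 0.05, none of the 11 Schwann cell markers differed. Of the 7 satellite glia markers 2 were lower and none higher, and of the 15 neuron markers 1 was higher and none lower. The satellite glia list summed to 4426 to 6357 CPM in Nf2 (median 4810) and 3423 to 4842 CPM in DKO mice (median 3915). Of the 7 tested markers of T and NK cells 6 were negative (median -0.51, 1 at an unadjusted p under 0.05). Of the 19 macrophage and monocyte markers 15 had negative fold changes, against 49.0% of all genes tested, with a median of -0.31. At an unadjusted p under 0.05, 9 were lower and 2 higher. Of the 19, 1 passed the edgeR threshold, against 0.940% of all genes tested. That marker was C1qb, the gene of a complement subunit, named after its values were seen. It fell from 37.0 ± 6.399 to 22.9 ± 2.86 CPM (log2 fold change -0.71, edgeR adjusted p = 0.0138). Its values did not overlap, as was so for 1.95% of all genes tested. The list summed to 371 to 543 CPM in Nf2 and 350 to 490 CPM in DKO mice, and none of its markers was at 0 in all mice. Among the most abundant, Csf1r had 68.8 ± 11.4 and 44.7 ± 9.45 CPM (log2 fold change -0.65, edgeR adjusted p 0.0566) and Lyz2 had 95.02 ± 24.0 and 126 ± 33.3 CPM (0.38, 0.372). Of the 12 endothelial markers 11 had positive fold changes, with a median of 0.21, and 3 were higher and none lower at an unadjusted p under 0.05. That list summed to 178 to 236 CPM in Nf2 and 209 to 329 CPM in DKO mice, with the highest sum in mouse 886, where Nfkb1 and Relb were lowest. Skeletal muscle markers had negative fold changes for 12 of 12 genes, with a median of -2.09 and 10 at an unadjusted p under 0.05. Positive fold changes were found for all 10 neutrophil markers (median 0.55, none at an unadjusted p under 0.05) and all 7 erythroid markers tested (median 0.74, 1 at an unadjusted p under 0.05). Of the 8 markers of B and plasma cells 7 were positive (median 0.81), 5 of them at an unadjusted p under 0.05. None of these 4 lists held a gene past the edgeR threshold, and their part in the pathway's values was not tested.

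Across the 12 mice, the levels of most genes of the set were weakly related. Of the 45 pairs, 26 had a positive Pearson r of log2(TMM-scaled CPM + 0.5), with a range from -0.53 to 0.85 and a median of 0.11. One pair passed adjustment over the 45, Tnfrsf1a and Tnfaip3, with r = 0.85 (permutation p = 0.00055, adjusted p = 0.0247) and Spearman rho = 0.78 (permutation p = 0.00415, adjusted p = 0.131). The r was 0.73 within Nf2 and 0.83 within DKO mice, and 0.66 without mice 702 and 887, the farthest from the median of Tnfrsf1a. With values centred on the genotype means it was 0.76 (permutation test, adjusted p = 0.198). The subunits Nfkb1 and Relb had r = 0.74 (permutation p = 0.00588, adjusted p = 0.132) and rho = 0.61 (permutation p = 0.0401, adjusted p = 0.451), with r = 0.24 within Nf2 and 0.74 within DKO mice. Without mice 702 and 886 it was 0.47. Nod1 and Ripk2 had r = 0.62 (permutation p = 0.0338, adjusted p = 0.447) and rho = 0.76 (permutation p = 0.00654, adjusted p = 0.131), whereas Nod1 and Nod2 had r = 0.074 (permutation p = 0.819, adjusted p = 0.942) and rho = 0.15 (permutation p = 0.633, adjusted p = 0.991).

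**Figure D5:**
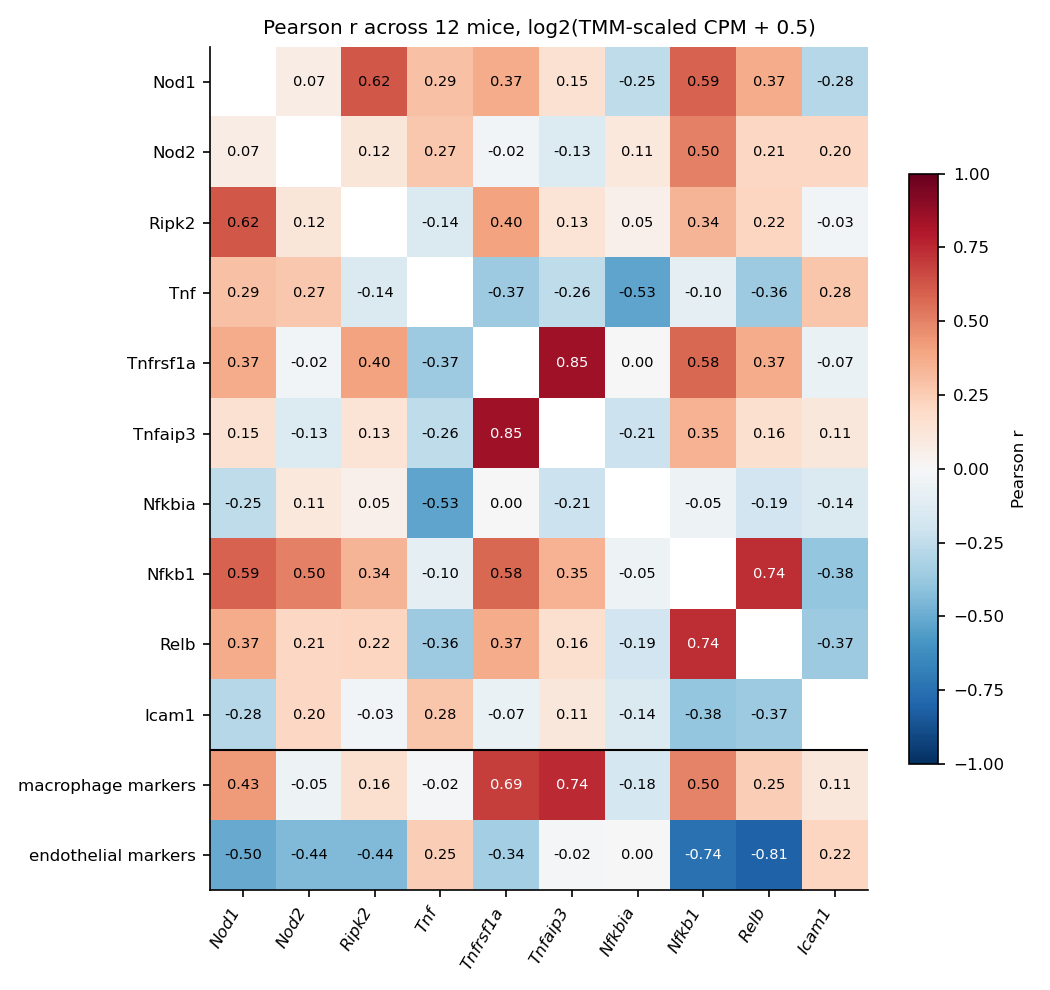
Pearson r across 12 mice between the 10 genes, and below the line between each gene and the mean log2 level of 19 macrophage or 12 endothelial markers. The highest r is 0.85 between Tnfrsf1a and Tnfaip3, and the lowest is -0.81 between endothelial markers and Relb.

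The same measure was set against the mean level of the macrophage and of the endothelial markers, 20 relations in all, of which 3 passed adjustment by Pearson and none by Spearman. Tnfaip3 followed the macrophage markers with r = 0.74 (permutation p = 0.00528, adjusted p = 0.0357) and rho = 0.61 (permutation p = 0.0396, adjusted p = 0.201), and r was 0.81 without mice 918 and 1048. Within genotypes it was 0.66 in Nf2 and 0.62 in DKO mice. The r of Tnfaip3 with the endothelial markers was -0.017 over all mice (permutation p = 0.957, adjusted p = 0.996). Within genotypes that r was 0.63 in Nf2 and 0.57 in DKO mice, close to the macrophage values. With values centred on the genotype means, r was 0.65 with macrophage and 0.59 with endothelial markers (permutation test, adjusted p 0.223 and 0.288). Nfkb1 was inversely related to the endothelial markers, with r = -0.74 (permutation p = 0.00536, adjusted p = 0.0357) and rho = -0.58 (permutation p = 0.0524, adjusted p = 0.209). Within genotypes it was -0.28 in Nf2 and -0.67 in DKO mice, and it was -0.46 without mice 649 and 886. Those mice lay farthest from the median of the endothelial markers, and leaving such mice out narrows the range and can itself weaken r. Relb had r = -0.81 (permutation p = 0.00106, adjusted p = 0.0212) and rho = -0.76 (permutation p = 0.00634, adjusted p = 0.127), with -0.76 within Nf2 and -0.75 within DKO mice and -0.59 without mice 649 and 886. None of the 20 passed with values centred on the genotype means. The part of these cell types in the differences between genotypes was not tested.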

How the data were processed

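RNA of DRG from 6 Nf2 and 6 DKO mice was extracted and sequenced by a commercial provider from poly(A)-selected libraries. The authors deposited raw counts, 1 whole number per Ensembl gene and mouse. The submitters' processing notes name Trimmomatic 0.36, STAR 2.5.2b, featureCounts of Subread 1.5.2 and GRCm38. The strand setting and the treatment of reads with several matches are not given in the sources used here, and such reads can be lost or split between similar genes.

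The genotypes were compared with edgeR 4.0.16 in R 4.3.3 (filterByExpr by genotype, TMM factors, quasi-likelihood F test, no covariate, Benjamini-Hochberg over 18295 genes, threshold 0.05). SEs were derived from the fold change and the F value. Alternatives were DESeq2 1.42.0 and limma 3.58.1 (voom with sample quality weights, and trend on the study's log2(CPM + 4)). Further alternatives were other scaling factors and count filters, sex as a covariate, either sex alone and each mouse left out. Males without mouse 702, all mice without 702 and 887, and the sex difference without 702 were added after the data were seen. CPM were computed on the library totals without scaling factors. Relations across mice used two-sided permutation tests with 100000 resamples in Python 3.11.15.

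Coordinates and exon lengths came from GENCODE M21, which held 99.5% of the genes, and start regions from RefSeq. The text names the 10 genes, each pathway list gene past the threshold, up to 4 genes per pathway list by smallest p and, of cell type lists, up to 3 abundant markers. Of 2 rows of Itgam, that with more reads was used. The members and lists were chosen with earlier results of these data known. The 66 pairs of libraries were checked for repeat deposits of 1 library, and none agreed within counting noise (chi-square per degree of freedom 9.73 to 81.2). Library totals of 21129191 to 41250329 set the counting precision, which is lowest for genes with few reads such as Tnf.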

Additional observations from a re-analysis of the deposited data

Results flagged for a closer look

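Of 20 groups of 6 mice examined (10 genes in each genotype), 1 held a mouse far from the others, and chance gives about 1. Tnfaip3 had 7.71 CPM in DKO mouse 887, below the next lowest DKO mouse at 10.9 CPM, a gap of 0.708 of the group's range on the scale of log2(CPM + 0.5). The same mouse had the lowest Tnfrsf1a and the highest mitochondrial share of the libraries. The part of either in its Tnfaip3 level was not tested.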

How the results depend on the processing

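The count of the 10 genes past the threshold was 0 in 24 of 25 alternatives and 1 with DESeq2, where Nfkb1 passed. The count over the pathway lists was 1 by edgeR, 8 with DESeq2 and 5 with limma voom. It was not taken with limma trend, with sex as a covariate or over all mice of either labelled sex alone. It was 0 without scaling factors, 0 without a count filter, 0 in males without mouse 702, 0 without mice 702 and 887, and 0 to 1 with 1 mouse left out, where the gene was Ltbr without mouse 887 or 915 and Tlr2 (adjusted p 0.0398) without mouse 885. DESeq2 called Birc2, Ltbr, Casp8, Nfkb1, Rela, Ccl2, Plau and Tlr2, and limma voom called Tab2, Ltbr, Rela, Ccl5 and Plau, all lower in DKO. The count over all genes was 823 with DESeq2, 521 with limma voom, 57 in females, 2 in males (9 without mouse 702) and 81 to 217 with 1 mouse left out. The log2 fold change turned to 0.093 for Ripk2 and 0.15 for Nfkbia in females, and with 1 mouse left out it ranged from -0.078 to 0.011 for Ripk2 and from -0.32 to 0.063 for Nfkbia. The cause was not tested. The other 8 genes kept their direction in every alternative that gave a value, and 4 of 25 gave none for Tnf, which fell below the count filter. With values centred on the genotype means, 0 of the 45 pairs of genes passed. The interaction of genotype and sex was passed by 0 of the 10 genes in every fit run. No paired analysis was run. The replicate numbers are mouse numbers, unique to each animal, and litters or cohorts are not given in the sources used here. Tnf (5 to 17 reads per mouse) and Nod2 (51 to 105) rested on the fewest reads. Depth and the spread between 6 mice per genotype were not separated.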
